A study of Rattus norvegicus with 6 samples.

Results

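The Hippo pathway genes described here are the co-activator genes Yap1 and Wwtr1 (which encodes TAZ), the TEAD transcription factor genes Tead1, Tead2, Tead3 and Tead4, and the kinase genes Stk3 (MST2), Lats1, Lats2 and Map4k4. Rows were picked by symbol with no filter on their values, as all rows of the assembled transcript table whose gene name was one of these symbols. This gave 10 of 21655 gene names and 83 of 70376 rows. The symbols themselves were chosen with earlier results of these data known. CircRNAs assigned to the same symbols gave 13 of 5216 circRNAs. Lungs came from Sprague–Dawley (SD) rats, 7 weeks old at the start, that received either a single intratracheal instillation of bleomycin at 7 mg/kg (PF model) or the same volume of saline (control), and were taken at day 28. The 6 libraries (3 control, 3 model, one rat each) came from total lung RNA after removal of rRNA, read from both ends over 150 bases. The bleomycin lung is a chemical injury model, and whole lung tissue mixes all cell types of the organ. In such bulk tissue, fewer cells of a type and less RNA per cell cannot be told apart.

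The Hippo pathway is a kinase cascade that restrains growth. MST kinases activate LATS kinases, which phosphorylate YAP and TAZ and keep them out of the nucleus, and kinases of the MAP4K family can act on LATS beside the MST kinases. Without this phosphorylation, YAP and TAZ bind TEAD factors on DNA and switch on genes such as Ctgf and Cyr61. In the lung the pathway is known for roles in alveolar regeneration and in the activation of fibroblasts, where YAP and TAZ respond to a stiff matrix. Much of this regulation acts on protein phosphorylation and location, which RNA levels do not measure.

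TEAD factors bind the letters GGAATG, and promoters were searched for these letters on both strands in the 250 bases before the gene start, as given by RefSeq for the rat build GRCr8. Promoters were at hand for 4 of the 10 genes (Yap1, Wwtr1, Tead3 and Lats1), and the letters were found in 1 of them, Yap1, 116 bases before the start. Among 22 genes of a YAP and TAZ target signature, 15 had a promoter entry and 5 of these held the letters (33.3%), against 12.9% of the 27457 promoters of all symbols. The promoter of Yap1 is shown beside those of the standard target genes Ctgf (Ccn2), with 3 matches, and Cyr61 (Ccn1), with 1 match on the other strand. Capitals mark the match, and each line reads towards the gene start.
Yap1, chr8:13451438-13451687, minus strand: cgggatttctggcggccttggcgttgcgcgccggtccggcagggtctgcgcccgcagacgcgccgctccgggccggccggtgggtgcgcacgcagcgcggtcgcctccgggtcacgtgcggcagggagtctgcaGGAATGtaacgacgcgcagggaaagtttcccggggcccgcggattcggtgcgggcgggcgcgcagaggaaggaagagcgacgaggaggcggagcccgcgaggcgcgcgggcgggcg
Ccn2, chr1:22624615-22624864, minus strand: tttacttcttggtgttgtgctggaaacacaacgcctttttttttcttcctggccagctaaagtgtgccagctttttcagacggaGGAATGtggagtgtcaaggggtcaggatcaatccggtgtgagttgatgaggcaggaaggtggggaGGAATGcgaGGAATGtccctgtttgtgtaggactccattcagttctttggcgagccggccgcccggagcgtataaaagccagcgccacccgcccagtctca
Ccn1, chr2:237225690-237225939, minus strand: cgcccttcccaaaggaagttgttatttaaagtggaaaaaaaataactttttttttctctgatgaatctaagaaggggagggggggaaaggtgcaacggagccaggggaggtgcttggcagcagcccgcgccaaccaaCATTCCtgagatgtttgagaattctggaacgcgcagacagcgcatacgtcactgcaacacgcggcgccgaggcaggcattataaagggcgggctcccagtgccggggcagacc
The 3 matches of Ccn2 lay 166, 101 and 92 bases before the start, and that of Ccn1 lay 113 bases before it. A match is a run of letters and not a measured binding site.

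The libraries were of like depth. One FPKM (fragments per kilobase of transcript, scaled to library size) corresponded to a mean coverage of 6.39 to 7.33 per base, and between 2037 and 2964 back-splice reads were counted per library. Markers of lung were high, with Sftpc, the surfactant protein of alveolar type 2 cells, at 2410 to 4146 FPKM, and the summed level of the liver markers found was at most 0.184 FPKM. Of 14 cell type marker lists, all overlapped between control and model samples in summed FPKM, and 0 of 68 marker genes tested had an adjusted p below 0.05 by limma (0.0102% of all gene names), with 2 at an unadjusted p of at most 0.05 (4.91% of all gene names). The ranges of summed FPKM in control and model samples were 982 to 1214 and 1071 to 1246 for alveolar type 1 cells, 4575 to 6342 and 5389 to 6962 for alveolar type 2 cells, and 328 to 347 and 344 to 430 for fibroblasts and pericytes. Model replicate 3 stood apart in muscle markers, with 29.99 FPKM over the cardiac list against 6.62 to 11.8 in the other 5 libraries, and 183 FPKM over the smooth muscle list against 101 to 141. The summed level of 10 fibrosis matrix genes was 407 to 488 FPKM in control and 495 to 585 FPKM in model samples, which did not overlap, but none of the 10 genes passed the adjusted test.

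The 10 Hippo genes were expressed in every library, and their summed level was 246 to 256 FPKM in control and 254 to 259 FPKM in model samples. All 10 passed the filter on low values (above 0 in at least 3 of the 6 samples). Ranked by the mean of the 6 libraries, Map4k4 was highest at 45.3 FPKM, and its lowest library lay above the highest library of the next gene. Tead1 (36.0 FPKM), Wwtr1 (35.5), Yap1 (33.5) and Lats2 (31.7) followed, and each of these overlapped its neighbour in the ranking. Stk3 (24.6 FPKM) and Tead4 (24.1) overlapped each other below them. Lats1 (12.03 FPKM), Tead3 (8.85) and Tead2 (2.03) formed the low end, and none of these overlapped its neighbours. Estimated from coverage and transcript length, a single library held between 151 and 262 reads for Tead2 and between 23140 and 27705 for Map4k4, so the values of Tead2 are the least precise.

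**Figure D1:**
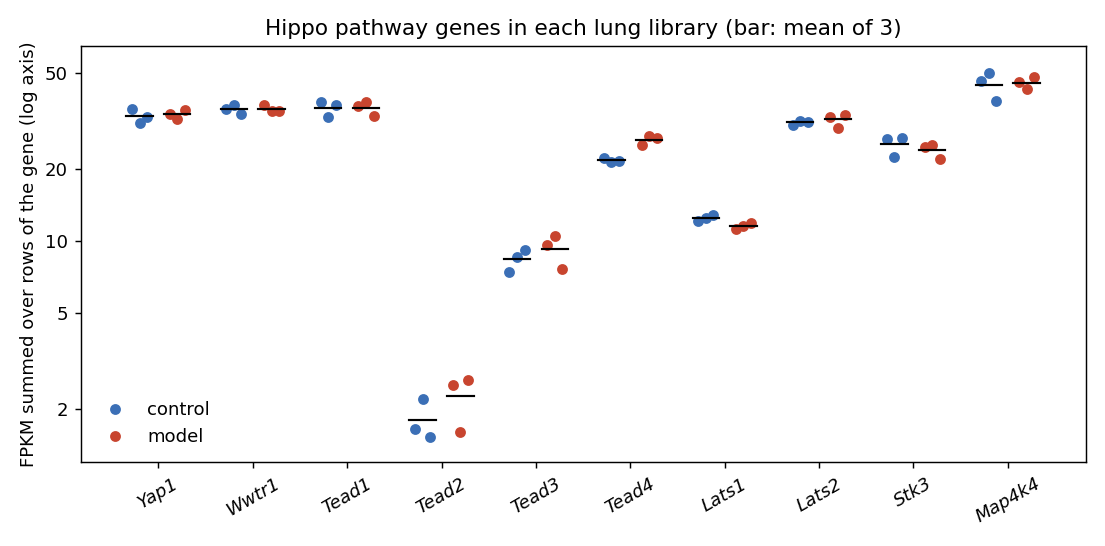
Summed FPKM of the 10 Hippo pathway genes (log axis) in each of 3 control (blue) and 3 model (red) libraries, with the group mean as a bar. Over all rows, groups overlap for every gene but Tead4 and Lats1. For Tead4 the model samples lie at 25.1 to 27.4 against 21.3 to 22.3 FPKM. Without the 4 Tead4 rows that extend from its locus to far beyond it, its groups overlap as well. For Lats1 the model samples lie at 11.3 to 11.9 against 12.2 to 12.9 FPKM.

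These gene sums hold rows of different kinds. Of the 83 rows, 15 were annotated Ensembl transcripts, 37 were assembled splice forms that shared a splice junction with one, 21 lay inside introns (13 on the opposite strand, 7 on the same strand and 1 without a strand), 4 were antisense to an exon, 5 overlapped an exon in another way and 1 lay near the gene end. Annotated and splice forms made up the whole sum of Lats1, Tead2 and Tead3, but 50.1% of that of Tead1, 46.1% of Tead4 and 44.2% of Stk3. For Tead1 the annotated transcript itself stood at 0.0206 FPKM on average, and its signal came from assembled forms that start upstream of the annotated start. With annotated and splice forms alone the ranking became Map4k4 (33.8 FPKM), Yap1 (26.7), Lats2 (26.2), Wwtr1 (25.9), Tead1 (18.03), Lats1 (12.03), Tead4 (11.1), Stk3 (10.9), Tead3 (8.85) and Tead2 (2.03). Tead1 thus moved from the second to the fifth place, below both co-activators in all 6 libraries. Reads of an intron row or an antisense row cannot be assigned to the mature mRNA of these genes.

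**Figure D2:**
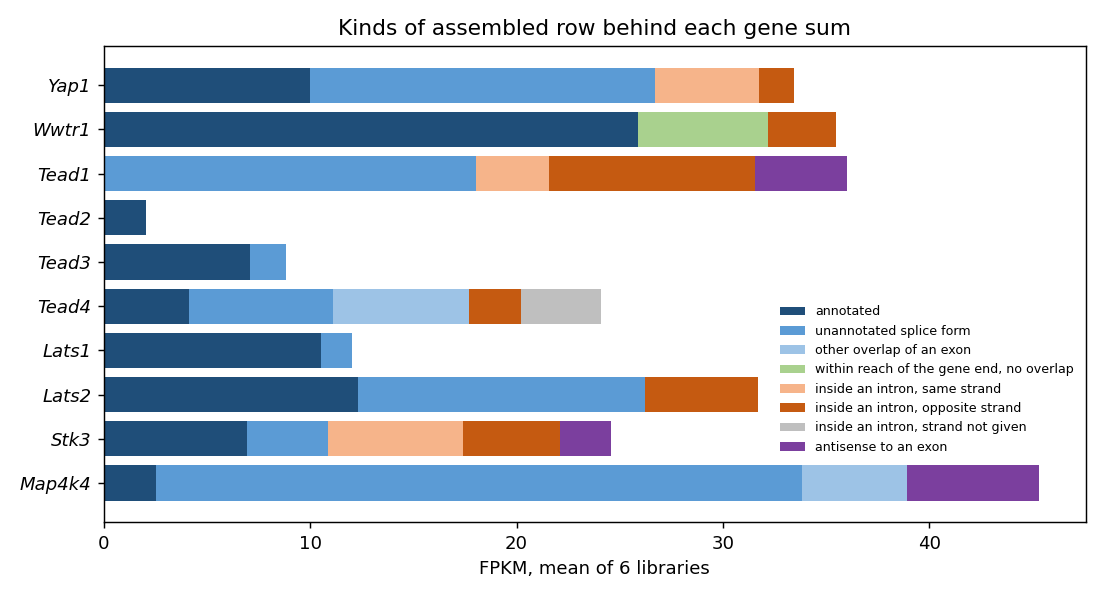
Mean FPKM over 6 libraries for each Hippo pathway gene, stacked by the kind of row (annotated transcripts, assembled splice forms, other exon overlap, gene end, introns and antisense). Annotated and splice forms make up 50.1% of the bar of Tead1 and all of those of Lats1, Tead2 and Tead3, where intron and antisense rows are absent.

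The comparison of model with control asked whether RNA of the pathway differs in the fibrotic lung. By limma on log2(FPKM + 1), 0 of the 10 genes had a Benjamini-Hochberg adjusted p below 0.05 (adjusted p between 0.933 and 1.0), while 0.0102% of the 19645 gene names tested did. None met the study's thresholds, p up to 0.05 (taken here without adjustment) with a log2 ratio of 1 or more in size, which 1.52% of all gene names met. Here the thresholds were applied to limma p-values of gene sums, which are not the study's own p-values. The unadjusted p was at most 0.05 for 1 gene, Tead4, against 4.91% of all gene names. The groups did not overlap for 2 genes, against 10.7% of all gene names. Of these, Tead4 was higher in model samples, as were 4.82% of all gene names, and Lats1 was lower, as were 5.87%. The log2 difference was smaller than 0.15 in size for 8 of the 10 genes, and its median was 0.03 over the 10 genes and -0.01 over all gene names tested. The count of 0 genes was also found under every alternative setting tried.

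Yap1, the co-activator at the end of the cascade, stood at 35.6, 31.1 and 33.0 FPKM in the control and at 33.8, 32.2 and 35.1 FPKM in the model samples. The groups overlapped fully, with a log2 difference of 0.02 and a 95% interval from -0.17 to 0.21. Wwtr1, its paralog, stood at 35.6, 36.8 and 33.9 FPKM in control and at 37.0, 34.9 and 34.7 FPKM in model samples. Its log2 difference was 0.00 (95% interval -0.16 to 0.17), and these groups overlapped as well. The ratio of Yap1 to Wwtr1 was 0.94 ± 0.08 in control and 0.95 ± 0.05 in model samples (SD, n = 3 each).

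Among the TEAD genes, Tead1 stood at 38.1, 33.0 and 36.9 FPKM in control and at 36.7, 38.1 and 33.2 FPKM in model samples. These overlapped, with a log2 difference of 0.00 (95% interval -0.22 to 0.21). Tead2 stood at 1.66, 2.19 and 1.54 FPKM in control and at 2.53, 1.60 and 2.65 FPKM in model samples. The groups of Tead2 overlapped, and its interval, from -0.22 to 0.65 around 0.21, was the widest of the 10 genes. Tead3 stood at 7.46, 8.58 and 9.20 FPKM in control and at 9.65, 10.5 and 7.68 FPKM in model samples, which also overlapped (log2 difference 0.12, 95% interval -0.21 to 0.45).

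Tead4, the TEAD gene with the smallest p, stood at 22.3, 21.3 and 21.7 FPKM in control and at 25.1, 27.4 and 26.8 FPKM in model samples. All model samples lay above all control samples, with a log2 difference of 0.27 ± 0.07 (SE), an unadjusted p of 0.0071 and an adjusted p of 0.933 by limma. In model replicates 2 and 3 this difference rested on rows that reach far beyond the annotated Tead4 locus. That locus is chr4:161540130-161587222, minus strand, in the coordinates of the files. Of the 9 rows named Tead4, 4 extend more than 300 kb beyond that locus, and together these stood at 7.16, 5.55 and 6.40 FPKM in control and at 7.37, 12.3 and 11.9 FPKM in model samples. One of them, MSTRG.26826.1, a form of 948 bases with 9 exons, was listed at 0 in control replicates 1 and 3 and in model replicate 1, and at 0.54, 5.10 and 5.33 FPKM in control replicate 2 and model replicates 2 and 3. Without these 4 rows, a setting chosen after the values were seen, Tead4 stood at 15.1, 15.8 and 15.2 FPKM in control and at 17.7, 15.1 and 14.9 FPKM in model samples. The groups then overlapped, although model replicate 1 still lay above all control samples. The log2 difference was 0.04 (95% interval -0.17 to 0.26, adjusted p = 0.969 by limma). The annotated transcript alone gave 0.09 (95% interval -0.39 to 0.57), and annotated and splice forms, which include MSTRG.26826.1, gave 0.44 (95% interval 0.16 to 0.72, adjusted p = 0.9502 by limma).

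The same rows bore on the balance among the TEAD genes. The summed level of Tead1 to Tead4 was 69.5, 65.1 and 69.3 FPKM in control and 73.9, 77.7 and 70.3 FPKM in model samples, without overlap. Tead4 made up 32.0 ± 0.74% of it in control and 35.8 ± 2.1% in model samples, and Tead1 made up 52.9 ± 2.0% and 48.6 ± 1.3% (SD, n = 3 each), both without overlap. Without the 4 far rows the TEAD sum (61.6 ± 1.8 and 63.4 ± 4.4 FPKM), the share of Tead4 (24.98 ± 1.3% and 25.1 ± 1.8%) and the share of Tead1 (58.4 ± 2.8% and 56.7 ± 1.6%) all overlapped between the groups. Over annotated and splice forms, which keep MSTRG.26826.1, the TEAD sum (37.1 to 38.2 FPKM in control, 41.4 to 43.1 FPKM in model samples) and the share of Tead4 (24.5 ± 1.9% and 30.7 ± 3.9%) did not overlap. These shares were described and not tested.

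Of the kinases, Lats1, which phosphorylates YAP and TAZ, stood at 12.2, 12.5 and 12.9 FPKM in control and at 11.3, 11.5 and 11.9 FPKM in model samples. All model samples lay below all control samples, but the log2 difference was small at -0.10 ± 0.07 (SE) and its 95% interval, from -0.28 to 0.07, held 0 (adjusted p = 0.933 by limma). Its annotated transcript of 7087 bases made up 87.4% of the sum and likewise did not overlap, with 11.2, 10.5 and 11.4 FPKM in control and 10.4, 9.86 and 9.58 FPKM in model samples. Lats2, its paralog, stood at 30.6, 31.7 and 31.4 FPKM in control and at 33.0, 29.7 and 33.6 FPKM in model samples, which overlapped (log2 difference 0.04, 95% interval -0.14 to 0.22). The ratio of Lats2 to Lats1 was 2.51, 2.54 and 2.44 in control and 2.94, 2.58 and 2.83 in model samples. All model ratios lay above all control ratios, also over annotated and splice forms alone (2.0 to 2.09 against 2.11 to 2.48). Both row sets hold the same Lats1 values, so the latter is not a separate check. The ratio was computed after Lats1 and Lats2 had been seen, and it was not tested.

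Stk3, which activates the LATS kinases, stood at 26.6, 22.4 and 26.8 FPKM in control and at 24.6, 25.04 and 22.0 FPKM in model samples. The groups overlapped (log2 difference -0.08, 95% interval -0.31 to 0.16, and 0.0062 when FPKM were rescaled to TPM). Map4k4 stood at 46.3, 50.1 and 38.2 FPKM in control and at 45.8, 42.9 and 48.4 FPKM in model samples. These overlapped as well (log2 difference 0.03, 95% interval -0.24 to 0.31), and the sign of the difference turned when annotated and splice forms alone were summed (-0.09).

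**Figure D3:**
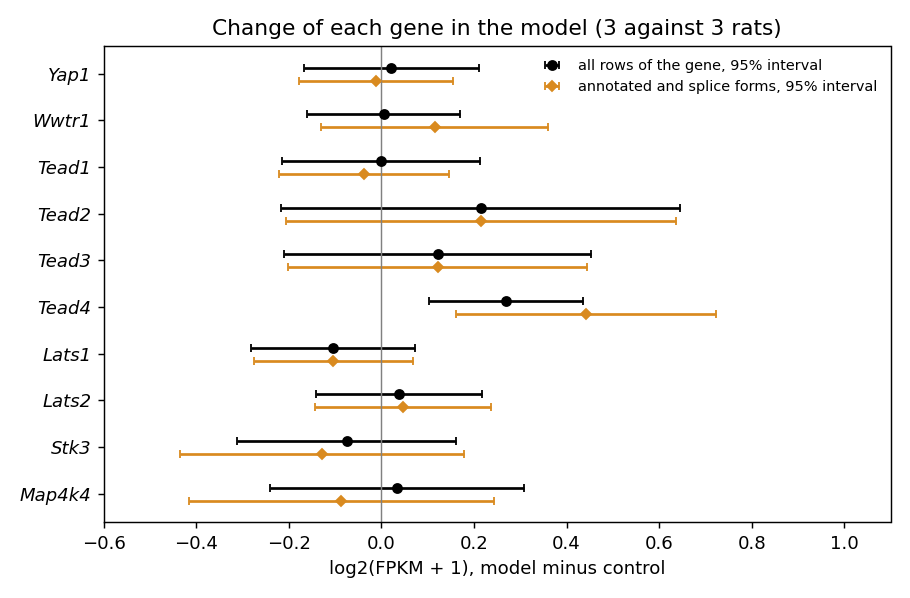
Difference of log2(FPKM + 1), model minus control, with 95% intervals from limma, for each Hippo pathway gene over all its rows (black) and over annotated and splice forms alone (orange). The intervals hold 0 for every gene but Tead4, whose sums in both settings include the row MSTRG.26826.1 that extends far outside the annotated locus.

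Below the gene sums, 78 of the 83 rows, of all kinds, were tested and are called isoforms here. Of the 83 rows, 60 had a mean of at least 1 FPKM. Groups did not overlap for 8 of the 78 isoforms (10.26%), against 10.4% of all 64867 isoforms tested. Of the 8, 4 were higher in model samples (4.12% of all isoforms) and 4 lower (6.29%). The 8 include MSTRG.2701.1, antisense to an exon of Tead1, and MSTRG.26837.1, inside an intron of Tead4, which cannot be assigned to the mRNA. Of the 78 isoforms tested, an adjusted p below 0.05 was found for 1, against 0.0277% of all isoforms, and an unadjusted p of at most 0.05 for 3, against 4.53%. The study's thresholds were met by 2, against 2.98% of all isoforms, namely the Map4k4 isoform described next and MSTRG.26826.3, a splice form of Tead4 with a mean of 0.113 FPKM. The annotated or assembled form with the highest mean of each gene held a share of the gene sum that overlapped between the groups for all 10 genes (exact permutation p between 0.2 and 1.0, adjusted p between 0.889 and 1.0, where 3 against 3 allow no p below 0.1).

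The isoform past the adjusted threshold was MSTRG.36815.1 of Map4k4, a row that overlaps an exon in another way than annotated and splice forms do. It has 2 exons and 5975 bases on the plus strand (chr9:46650445-46728309) and begins upstream of the annotated start of the gene at 46657575. It was listed at 0 in all 3 control samples and at 5.12, 4.26 and 3.77 FPKM in model samples. The difference on the log2(FPKM + 1) scale was 2.42 ± 0.16 (SE), with an adjusted p of 0.0359 by limma. The isoform passed the filter on low values only through the model samples, and its values in control have no spread, so the SE and p describe these values and give no firm support. The call was lost on leaving out any one of the 6 libraries (adjusted p between 0.0839 for model replicate 1 and 0.134 for model replicate 2) and without the filter on low values (0.0506). In all, 0.344% of the isoforms tested were listed at 0 throughout one group and above 0 throughout the other.

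A second Map4k4 row of the same kind, MSTRG.36815.16, ends at the same base and begins at 46707347 with 20899 bases. It stood at 2.91, 3.89 and 4.02 FPKM in control and at 1.82, 1.82 and 2.96 FPKM in model samples, which overlapped (log2 difference -0.54 ± 0.20, adjusted p = 0.945 by limma). It was among the 3 isoforms with an unadjusted p of at most 0.05, with the opposite sign to MSTRG.36815.1. The sum of both rows, taken after their values were seen, was 2.91, 3.89 and 4.02 FPKM in control and 6.94, 6.08 and 6.73 FPKM in model samples, without overlap. The rows differ in length, and FPKM is per length. The reads estimated for both rows together were 2820, 3464 and 4105 in control and 3330, 2791 and 3878 in model samples, which overlapped. Whether the assembly divided reads between these rows differently in the groups was not tested. Together both rows made up 11.2% of the Map4k4 sum, which held 18 unannotated splice forms.

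Several isoforms were all or nothing in single libraries. Of the 83 rows, 11 from 7 genes were listed at 0 in at least 1 library and reached 1 FPKM in another. For Tead1, MSTRG.2692.4 was listed at 12.7 FPKM in control replicate 2 and at 0 in the other 5 libraries. In that library MSTRG.2692.1, the Tead1 form with the highest mean, stood at 0.82 FPKM against 5.53 to 10.9 FPKM in the others. For Lats2, MSTRG.12949.2 was likewise listed only in control replicate 2, at 2.90 FPKM. For Tead2, model replicate 3 was listed with ENSRNOT00000090838 at 2.65 FPKM and with ENSRNOT00000028086 at 0, while the other 5 libraries had the latter at 1.54 to 2.53 FPKM and the former at 0. The gene sums of these libraries, at 33.0 FPKM for Tead1, 31.7 for Lats2 and 2.65 for Tead2, lay close to those of the nearest other library (33.2, 31.4 and 2.53 FPKM).

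**Figure D4:**
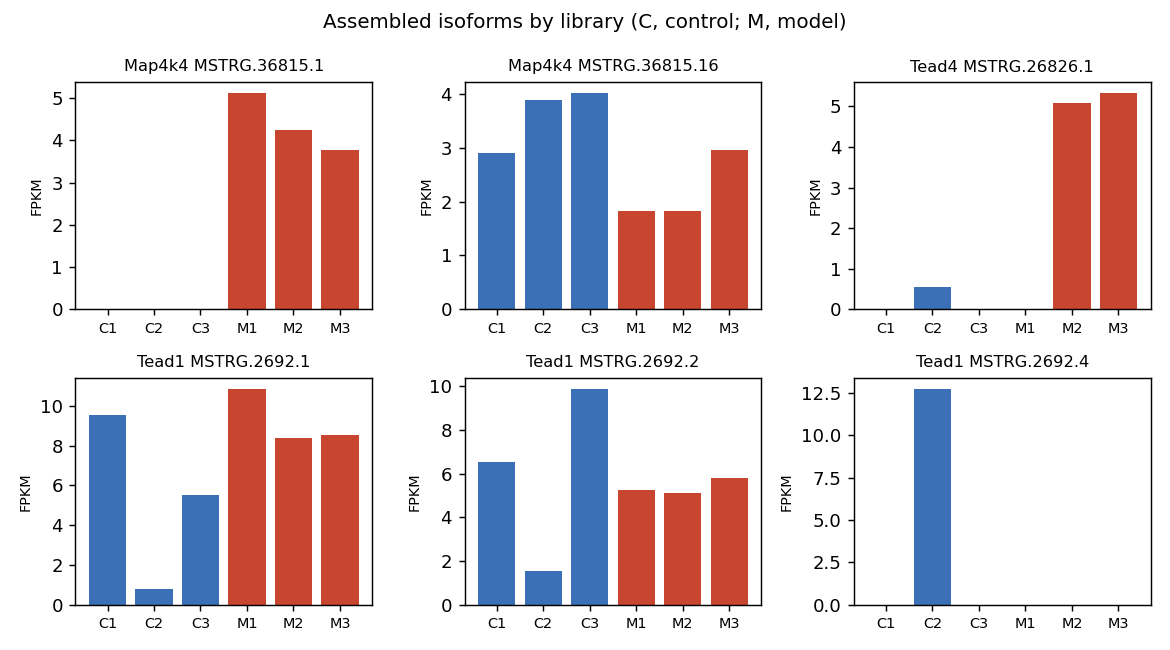
FPKM of 6 assembled isoforms of Map4k4, Tead4 and Tead1 in each control (C, blue) and model (M, red) library. MSTRG.36815.1 is listed at 0 in all control samples and at 3.77 to 5.12 FPKM in model samples, and MSTRG.2692.4 appears in 1 control library alone.

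The remaining leading isoforms were measured with overlap between the groups, or without passing the test. The main Yap1 form, MSTRG.34079.1 (11265 bases), stood at 10.1, 8.53 and 8.81 FPKM in control and at 9.11, 8.31 and 9.81 FPKM in model samples. The annotated Yap1 transcript ENSRNOT00000087278 stood at 7.34 to 9.50 and 7.85 to 11.3 FPKM. The Wwtr1 transcript ENSRNOT00000022507 stood at 26.0, 27.0 and 21.6 FPKM in control and at 27.3, 25.4 and 28.1 FPKM in model samples, overlapping. The annotated Tead3 transcript ENSRNOT00000000607 stood at 5.61, 7.18 and 7.01 FPKM in control and at 7.84, 7.93 and 6.88 FPKM in model samples. The leading Tead4 form, MSTRG.26826.4, stood at 3.44 to 5.96 FPKM in control and 3.94 to 6.34 FPKM in model samples. Both overlapped between the groups, as did the annotated Stk3 transcript ENSRNOT00000065722, at 6.35 to 7.91 and 5.46 to 7.41 FPKM, and the annotated Lats2 transcript ENSRNOT00000087978, at 10.9 to 13.1 and 10.7 to 13.3 FPKM. For Map4k4 the row with the highest mean was antisense to the gene, MSTRG.36814.1 (35660 bases, minus strand), at 6.09 to 6.40 FPKM in control and 5.96 to 6.92 FPKM in model samples. The second form of Lats2, MSTRG.12949.1, which starts outside the annotated locus, stood at 9.54, 8.996 and 8.98 FPKM in control and at 10.2, 10.3 and 10.9 FPKM in model samples. These Lats2 values did not overlap, with a log2 difference of 0.18 ± 0.08 (SE) and an adjusted p of 0.945 by limma.

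CircRNAs of these genes were rare. The 13 circRNAs came from 7 of the 10 genes and were counted with 40 of 14904 back-splice reads, 23 in control and 17 in model samples. Their share of the back-splice reads lay between 0.135% (exact Clopper-Pearson 95% interval 0.0368 to 0.345%) in model replicate 3 and 0.412% (0.189 to 0.781%) in control replicate 2, and these intervals cover counting error only. No back-splice read was assigned to Wwtr1, Tead2 or Tead3, and 0 of 14904 reads allows a share of up to 0.0201%. Of the 13 circRNAs, 9 were found in 1 library alone and 7 rested on 1 read. Stk3, with 4 circRNAs, and Tead1, with 2, gave 13 and 12 of the 40 reads.

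Only circRNA1943 of Tead1 reached the 10 reads required for a test. It comes from 1 exon at the annotated start of Tead1 (chr1:177569617-177569872) and was counted 0, 5 and 2 times in control and 0, 2 and 2 times in model samples. The groups overlapped, and edgeR's quasi-likelihood test gave a log2 difference of -0.78 with an adjusted p of 0.985, so 0 circRNAs of these genes were called, with 0 at an unadjusted p of at most 0.05 and 0 by DESeq2. Of the 226 circRNAs tested in all, 0.442% had an adjusted p below 0.05 and 5.31% an unadjusted p of at most 0.05. For Stk3, circRNA1635 was counted 0, 3 and 5 times in control and not at all in model samples, while circRNA3100, which shares one end with it, was counted 0 times in control and 1, 2 and 0 times in model samples. For Tead4, circRNA1785 was counted 0, 1 and 1 times in control and 5, 0 and 0 times in model samples. The paper's discussion names circRNA1635 and circRNA3100 among differentially expressed circRNAs, under the gene ontology term positive regulation of JNK cascade. Here counts this low were given without a test.

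Further genes of the pathway were followed as lists, which share some genes. Of 33 kinases, scaffolds and upstream regulators of the cascade, 32 were tested (Dchs2 was not matched in the table), and 0 had an adjusted p below 0.05 by limma, with 1 at an unadjusted p of at most 0.05, against 4.91% of all gene names. The groups did not overlap for 4 of the 32 genes, Dchs1, Fat4, Strn3 and Crb3, against 10.7% of all gene names. Their median log2 difference was -0.01, as over all genes, and both were 0.05 after rescaling to TPM. The gene with the small p was Dchs1, a large cadherin of the planar polarity branch upstream of Hippo, at 7.36, 7.51 and 7.18 FPKM in control and 8.46, 11.3 and 9.85 FPKM in model samples. The groups of Dchs1 did not overlap (log2 difference 0.37 ± 0.12, adjusted p = 0.933 by limma), and neither did those of its binding partner Fat4, at 12.3, 13.6 and 13.2 FPKM in control and 13.9, 13.7 and 15.2 FPKM in model samples (0.12 ± 0.08). Strn3, a scaffold of the phosphatase complex that opposes the MST kinases, stood at 30.2, 28.6 and 34.99 FPKM in control and at 26.2, 27.2 and 18.4 FPKM in model samples. Its groups did not overlap either (log2 difference -0.39 ± 0.16, adjusted p = 0.933 by limma). Crb3, an apical polarity gene named after its values were seen, stood at 7.01, 7.46 and 7.84 FPKM in control and at 6.57, 6.98 and 6.01 FPKM in model samples (-0.17 ± 0.10). Rassf1, Map4k1 and Taok1, the other genes of this list with the smallest p, overlapped between the groups and had log2 differences of 0.26, -0.26 and -0.18.

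Of 18 binding partners and inhibitors of YAP and TEAD, 15 were tested (Vgll1, Vgll2 and Wtip were not matched). An adjusted p below 0.05 by limma was found for 0, against 0.0102% of all gene names. An unadjusted p of at most 0.05 was found for 0, against 4.91%. The groups did not overlap for 1 of the 15, Csnk1d, against 10.7% of all gene names. The median log2 difference was 0.01. Csnk1d, a casein kinase that marks phosphorylated YAP for degradation, stood at 23.1, 22.8 and 20.7 FPKM in control and at 23.4, 23.7 and 26.5 FPKM in model samples, without overlap (0.14 ± 0.08). Ajuba, with a log2 difference of 0.08, and Vgll3, Btrc and Amotl2, with -0.24, -0.23 and -0.19, overlapped between the groups.

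Of the 22 genes of the YAP and TAZ target signature, 21 were tested (Foxf2 was not matched). They include Lats2, a kinase gene described above, and Amotl2 and Ptpn14, which are also in the list of binding partners. Of these, 15 had a higher and 6 a lower mean log2 level in model samples, where 47.5% of all genes tested had a higher one. By limma, 0 had an adjusted p below 0.05, against 0.0102% of all gene names, and 0 an unadjusted p of at most 0.05, against 4.91%. The groups did not overlap for 1 of the 21, Ccdc80, against 10.7% of all gene names. The median log2 difference was 0.06, against -0.01 over all gene names tested. Ctgf, the matricellular factor whose promoter is printed above, stood at 14.6, 22.9 and 27.3 FPKM in control and at 21.2, 21.6 and 25.9 FPKM in model samples, which overlapped. Cyr61, its relative, stood at 99.6, 119 and 138 FPKM in control and at 112, 117 and 69.2 FPKM in model samples. The lowest value of Cyr61 came from model replicate 3, and the log2 difference of -0.28 ± 0.23 did not pass (adjusted p = 0.933 by limma). Ankrd1, a target that heart muscle also expresses, stood at 2.58, 2.04 and 2.11 FPKM in control and at 2.52, 2.47 and 5.10 FPKM in model samples. Its highest value came from model replicate 3, the library with the highest cardiac marker level, and the part of these markers in it was not tested. Ccdc80, a matrix protein gene, did not overlap, with 7.46, 7.70 and 7.09 FPKM in control and 7.83, 8.43 and 9.88 FPKM in model samples (0.20 ± 0.11, adjusted p = 0.933 by limma). Asap1 and Rbms3 overlapped, with log2 differences of 0.23 and -0.08.

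**Figure D5:**
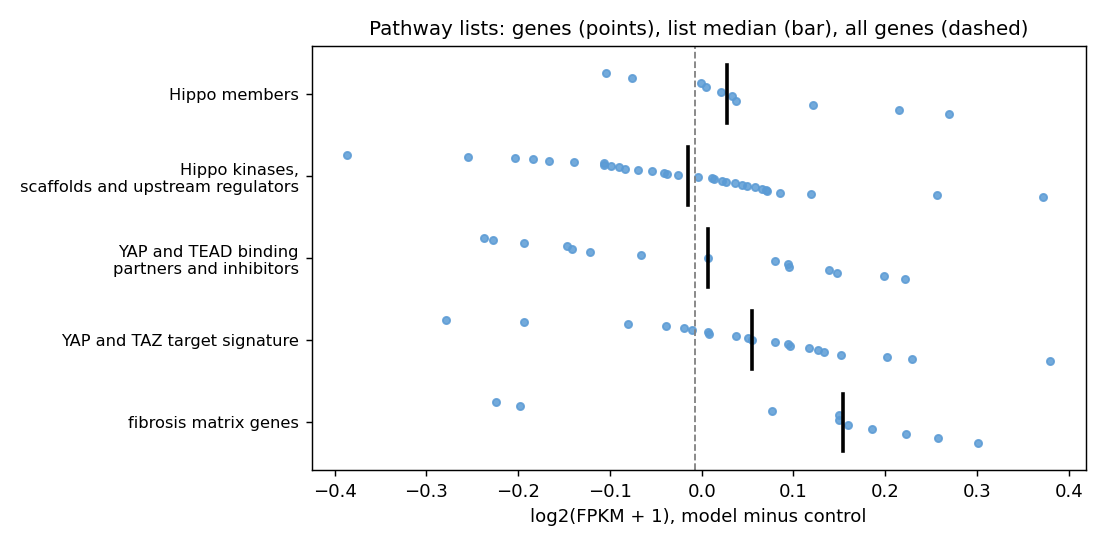
Difference of log2(FPKM + 1), model minus control, for the genes (points) of the 10 Hippo pathway genes, 3 further pathway lists and the fibrosis matrix genes, with list medians (bars) and the median of all genes tested (dashed). The medians of the pathway lists lie between -0.01 and 0.06, and no point belongs to a gene with an adjusted p below 0.05.

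The fibrosis matrix genes are the usual markers of the lesion. Col3a1, a fibrillar collagen, stood at 174, 178 and 154 FPKM in control and at 189, 204 and 233 FPKM in model samples, without overlap (0.30 ± 0.11, adjusted p = 0.933 by limma). Lox, the collagen crosslinking enzyme, was lower in all model samples, at 14.6, 12.8 and 14.96 FPKM against 17.4, 16.2 and 15.4 FPKM in control. Among the 10 genes, only Col3a1 and Lox did not overlap between the groups, against 10.7% of all gene names. Col1a1 overlapped, at 60.2 to 66.5 FPKM in control and 60.7 to 84.9 FPKM in model samples. Of the 10 genes of this list, 8 had a higher mean log2 level in model samples, against 47.5% of all genes tested. The 8 include Spp1, which reached at most 0.36 FPKM in any library. The genes with a lower level were Lox and Timp1 (log2 difference -0.22).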

How the data were processed

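Lung RNA of 3 control and 3 PF model rats was analysed, grouped by the treatment in the labels. After trimming (Cutadapt) and mapping (Bowtie2, Tophat2, with HISAT2 also listed in the submitters' processing notes), the authors assembled transcripts with StringTie and deposited FPKM from StringTie and Ballgown per transcript. Beside it the authors deposited coverage per base, a signal not scaled for depth, here used to estimate reads (coverage times length over 150 bases). For circRNAs the authors deposited counts of back-splice reads (Tophat-fusion, CIRCexplorer), and a signal scaled by a library total, which was not tested. The genome build is not given in the sources used here. Columns of the tables that hold the authors' annotations were used only for names and positions.

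FPKM were summed over all rows of a gene name. Genes and isoforms above 0 in at least 3 of the 6 samples were compared by limma 3.58.1 with trend on log2(FPKM + 1), two-sided, in R 4.3.3, with Benjamini-Hochberg adjustment over all features. CircRNAs with at least 10 reads were tested with edgeR 4.0.16 (quasi-likelihood, TMM) and DESeq2 1.42.0. Shares were compared by exact permutation over 20 regroupings. The pipeline was tested on simulated data with known changes. At an adjusted p below 0.05 it found 14% of genes changed by a log2 of 0.5 and 66% of those changed by 1. For isoforms it found 0% and 12%, and for circRNAs 10% at a log2 of 2 and 15% at 3. False calls numbered 11 for genes and 11 for isoforms. Alternatives were other pseudocounts, filters, scalings and row sets, a replicate block and leaving out each library. The members and gene lists were chosen with earlier results of these data known. The text names all members, their leading isoforms of at least 1 FPKM, isoforms past a threshold, circRNAs with at least 10 reads, and the 3 genes with the smallest p per direction of each pathway list, of which 1 is not reported here. Ctgf, the far Tead4 rows, the second Map4k4 row, Crb3 and isoforms present in 1 library were chosen after their values were seen. So were the Lats2 isoform, MSTRG.2701.1, MSTRG.26837.1 and the circRNAs below 10 reads. Akap5, Col3a1, Lox, Col1a1, Spp1, Timp1 and Ptpn14 were likewise named outside this rule. P-values measure the spread between these 6 libraries.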

Additional observations from a re-analysis of the deposited data

How the results depend on the processing

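No Hippo gene, pathway list gene or circRNA passed an adjusted p of 0.05 under any alternative. The count of isoforms past it was 1, and 0 without the filter on low values, with the replicate block, and on leaving out each library (0 to 0); the cause was not tested. Under the replicate block, MSTRG.36815.1 kept its difference of 2.42 with an adjusted p of 0.939. The replicate numbers do not pair the rats: deviations of same-numbered samples correlated at 0.06, 0.03 and -0.08, and not every sample correlated best with its own number. The block changed no other call on the Hippo genes, their isoforms, the pathway lists or the circRNAs, while calls over the whole table went from 2 to 0 genes and from 18 to 0 isoforms.

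Scaling to TPM moved the median of all genes from -0.01 to 0.05 and those of the kinase, partner and target lists to 0.046, 0.091 and 0.14, and gave positive differences for Tead1 (0.083), Stk3 (0.0062) and the Yap1 isoform MSTRG.34079.1 (0.072). Tead1 was also positive with upper quartile scaling (0.026) and with sums weighted by length (0.17). With Ensembl transcripts alone Map4k4 was -0.24 and the kinase list median was 0.033. With annotated and splice forms alone Map4k4 was -0.087 and Yap1 was -0.012. On leaving out each library, differences ranged from -0.023 to 0.0703 for Yap1, -0.027 to 0.032 for Wwtr1, -0.0602 to 0.055 for Tead1, -0.076 to 0.12 for Map4k4, -0.0596 to 0.057 for MSTRG.34079.1, -0.054 to 0.11 for the Lats2 transcript ENSRNOT00000087978, -0.12 to 0.23 for MSTRG.26826.4, -0.78 to 0.13 for ENSRNOT00000028086 and -1.36 to 0.58 for circRNA1943. The list medians ranged from -0.049 to -0.0027 (kinases) and from -0.12 to 0.0501 (partners), both lowest without model replicate 3, and from 0.017 to 0.091 (targets). Without a change of sign, Tead2 ranged from 0.12 to 0.37, Tead3 from 0.035 to 0.24, Stk3 from -0.16 to -0.021 and Lats2 from 0.0047 to 0.091.

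With 3 rats a group, the median standard error of the log2 difference over the 10 genes was 0.084. CircRNA counts were low, with 40 reads over all libraries.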

Other observations

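The search covered 14312 genes with a mean of at least 1 FPKM, Yap1 among them. Those whose gene-centred log2(FPKM + 1) over the 6 libraries lay closest to Yap1 were Kctd20 (root mean square difference 0.0169), Smarcd1 (0.0169) and Dpy30 (0.0212). Kctd20 stood at 18.5, 16.7 and 17.2 FPKM in control and at 17.7, 16.7 and 18.6 FPKM in model samples, so that, as for Yap1, control replicate 1 and model replicate 3 were the highest. The likeness is a description over 6 libraries that share their depth and origin. Akap5, a gene of the alveolar type 1 list, had 52.1, 53.2 and 24.6 FPKM in control and 17.2, 22.0 and 23.7 FPKM in model samples. Its groups did not overlap (log2 difference -0.94 ± 0.31, adjusted p = 0.933 by limma), as for 10.7% of all gene names. It went against its list. Of the 8 genes of that list, 6 had a higher mean log2 level in model samples, and the summed FPKM of the list overlapped between the groups.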
